A study of Mus musculus with 18 samples.

Results

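Genes that act in the adhesion and fusion of myoblasts were followed in myoblasts with and without LAP2α. The 9 genes were taken by name for their known roles, with earlier results of these data known: *Mymk*, *Cdh15*, *Cdh2*, *Ncam1*, *Jam2*, *Jam3*, *Myof*, *Dysf* and *Cav3*. All 9 were found among the 19153 genes listed for every library, and all 9 were among the 17672 tested. Every sample came from an immortalized mouse myoblast line that lacks p53, so wildtype (WT) means wildtype for LAP2α only. The LAP2α knockout (KO) was made in these cells with CRISPR-Cas9, and the KO and control cells were sorted in bulk rather than grown from single clones, the controls after receiving the Cas9 plasmid without a guide. Each genotype was sequenced while proliferating in 20% serum (Prol), at confluence (D0) and after a further 48 h in 5% serum (D2), with 3 libraries in each of the 6 groups.

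During muscle differentiation, mononucleated myoblasts leave the cell cycle, recognize and adhere to each other, and merge into multinucleated myotubes. Cadherins, NCAM and the JAM proteins are cell surface adhesion molecules of myoblasts. Myomaker (*Mymk*) is a membrane protein that is required for the merger itself and works with the small protein myomixer (*Mymx*). Ferlins such as dysferlin (*Dysf*) and myoferlin (*Myof*) act in membrane fusion and repair, and caveolin-3 (*Cav3*) forms the caveolae of muscle cells.

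Myogenic transcription factors such as MyoD and myogenin bind the E-box, with the letters CANNTG. The regions upstream of a member that was close to the detection limit before D2 and of a member with a high level throughout are shown for comparison, in RefSeq sequence of build GRCm38.p6. Each is the 250 bases before the RefSeq start of the gene, 5′ to 3′ on the strand of the gene, and capitals mark E-boxes. The *Cav3* region is chr6:112459255-112459504 on the plus strand and the *Myof* region is chr19:38043578-38043827 on the minus strand.
Cav3: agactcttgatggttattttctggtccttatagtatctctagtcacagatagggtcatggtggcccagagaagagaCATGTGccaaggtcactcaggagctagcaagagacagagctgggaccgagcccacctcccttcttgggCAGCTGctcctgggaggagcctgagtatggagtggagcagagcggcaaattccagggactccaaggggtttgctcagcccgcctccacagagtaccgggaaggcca
Myof: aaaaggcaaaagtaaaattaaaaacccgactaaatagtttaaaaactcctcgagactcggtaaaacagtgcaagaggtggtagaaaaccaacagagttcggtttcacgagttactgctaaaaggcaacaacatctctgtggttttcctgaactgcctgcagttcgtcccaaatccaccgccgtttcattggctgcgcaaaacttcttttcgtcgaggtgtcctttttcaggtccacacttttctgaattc
The *Cav3* region held E-boxes that began 174 and 106 bases before the start, the second of them the form CAGCTG. The *Myof* region held none. The search covered both strands and all members but *Cdh2*, and 4 members had 5 such regions in the sequence table. The *Cdh15* region held 3 E-boxes and lies inside the first exon of the GENCODE gene model, and the 2 *Dysf* regions held none. Of 32851 such regions of all genes, 66.2% held an E-box, 13.0% the form CAGCTG, 17.2% the form CACCTG (both forms are also E-boxes) and 2.92% the consensus of the muscle factor MEF2, and none of these 5 regions held CACCTG or the MEF2 consensus. A match shows only that these letters are present.

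The deposited values are CPM, read counts scaled to a common library size, from libraries of 26437823 to 41619016 expected counts, in which 3 counts equal 0.0651 to 0.119 CPM. *Tmpo*, which encodes LAP2α together with the other LAP2 isoforms, was at 275, 310 and 315 CPM in the WT Prol libraries and at 228, 250 and 260 in the KO Prol libraries. The genotypes overlapped in D0 (239 to 302 CPM in WT and 191 to 259 in KO) and in D2 (106 to 157 and 94.5 to 157). The gene total does not separate LAP2α from the other isoforms and so is a weak check of the labels. Of 7 myoblast markers 5 were listed (*Myod1*, *Myf5*, *Des*, *Chrna1* and *Megf10*), with a summed level of 57.0 to 85.0 CPM in Prol, whereas *Pax7* and *Msc* are not among the listed genes. In WT and KO Prol the mean of *Myod1* was 2.59 and 3.63 CPM, that of *Des* 3.44 and 2.79, and that of *Myf5* 24.5 and 23.4. From Prol to D2, *Myod1* rose by a log2 fold change of 5.51 in WT and 4.12 in KO, and *Myog* by 9.06 and 7.88. The mean of *Myf5* was lower at D2, at 17.6 CPM in WT and 20.0 in KO, with libraries that overlapped those of Prol. Replicate 1 of WT D2 stood apart from the other 2 libraries of its group, with a summed level of 7 differentiation markers (*Myog*, *Ckm*, *Myh3*, *Actc1*, *Acta1*, *Tnnt3*, *Ttn*) of 6520 CPM against 3225 and 2935. No source used here says whether the replicates were separate cultures, and the p-values measure the spread between these libraries only.

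*Mymk* (ENSMUSG00000009214, chromosome 2, 27061636 to 27072179, minus strand), the fusion protein myomaker, was close to absent until D2. Its levels were 0.47, 0.14 and 0.05 CPM in WT Prol (replicates 1, 2 and 3), and 0.34, 0.36 and 0.12 in KO Prol. They were 0.91, 0.12 and 0.22 CPM in WT D0 and 0.13, 0.59 and 0.15 in KO D0. At D2 they reached 357, 172 and 148 CPM in WT and 126, 122 and 86.1 in KO. Every D2 library of either genotype was far above every earlier library. On the log2 scale *Mymk* rose from Prol to D2 by 10.40 in WT (standard error 0.81, adjusted p = 2.8e-07) and by 8.80 in KO (standard error 0.74, adjusted p = 8.0e-07), from limma with voom weights and Benjamini-Hochberg adjustment, as are all adjusted p-values here. The fitted folds of so low a starting level depend on the 0.5 counts added to each value, and the WT value was 11.31 without replicate 1 of WT Prol, which holds 17 of the 21 counts of that group, and 9.61 without replicate 3. The ratio of the summed counts, scaled for depth, was 978 in WT (95% interval 640 to 1580, from 21 counts in Prol) and 423 in KO (286 to 654, from 25 counts), and these intervals cover counting error only.

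*Cav3* (ENSMUSG00000062694, chromosome 6, 112459505 to 112472872, plus strand), the muscle form of caveolin, had the same low start. In WT Prol the libraries held 4, 2 and 0 counts and in KO Prol 1, 1 and 0. In D0 they held 7, 2 and 2 counts in WT and 2, 0 and 3 in KO. By D2 the levels were 56.2, 34.6 and 26.4 CPM in WT and 16.5, 22.6 and 18.9 in KO, so that all D2 libraries were above all Prol and D0 libraries. The fitted rise from Prol to D2 was 9.29 in WT (standard error 0.76, adjusted p = 4.3e-07) and 9.20 in KO (standard error 0.83, adjusted p = 1.2e-06). Without replicate 3 of WT Prol, which held 0 counts, the WT value was 8.40. With 6 summed counts in WT Prol and 2 in KO Prol, the ratios of summed counts were 595 (273 to 1620) and 941 (260 to 7770), and the interval of the KO ratio contains that of the WT ratio.

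*Cdh15* (ENSMUSG00000031962, chromosome 8, 122847966 to 122867397, plus strand) encodes M-cadherin, the cadherin typical of muscle. It was at 1.06, 1.76 and 2.95 CPM in WT Prol and at 1.39, 2.47 and 5.18 in KO Prol. In D0 it was at 5.23, 0.88 and 2.95 CPM in WT and at 3.44, 1.29 and 3.21 in KO. At D2 it was at 189, 99.2 and 91.5 CPM in WT and at 74.9, 67.1 and 73.4 in KO. The KO D2 libraries lay close together, whereas replicate 1 of WT D2 was far above the other 2. *Cdh15* rose from Prol to D2 by 6.11 on the log2 scale for WT (standard error 0.58, adjusted p = 1.4e-06) and by 4.79 in KO (standard error 0.54, adjusted p = 6.9e-06). The model of *Cdh15* shares bases on the same strand with the annotated gene *Gm20388*, so the division of reads between them is uncertain.

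*Cdh2* (ENSMUSG00000024304, chromosome 18, 16588877 to 16809246, minus strand) encodes N-cadherin. In contrast to *Cdh15*, it was high throughout, at 232, 101 and 177 CPM in WT Prol and 203, 101 and 178 in KO Prol. It was at 205, 56.4 and 152 CPM in WT D0 and at 171, 46.6 and 164 in KO D0. The D2 libraries were at 333, 111 and 124 CPM in WT and at 195, 105 and 141 in KO. The groups overlapped in every comparison, and replicate 1 was the highest library of each group. The log2 difference between D2 and Prol was 0.07 in WT (95% interval -1.17 to 1.30) and -0.10 in KO (-1.33 to 1.13), and neither passed the test (adjusted p = 0.95 and 0.92). The sign of both depended on single libraries, and without replicate 1 of WT D2 the WT value was -0.44.

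*Ncam1* (ENSMUSG00000039542, chromosome 9, 49502136 to 49798925, minus strand), the neural cell adhesion molecule, is an immunoglobulin-type adhesion protein of myoblasts. It was at 198, 86.2 and 135 CPM in WT Prol and at 182, 99.0 and 151 in KO Prol, at 196, 66.4 and 142 in WT D0 and at 155, 69.7 and 180 in KO D0. At D2 it was at 321, 155 and 162 CPM in WT and at 205, 122 and 181 in KO, again with overlap of all groups. The log2 difference between D2 and Prol was 0.62 in WT (95% interval -0.35 to 1.59, adjusted p = 0.34) and 0.26 in KO (-0.71 to 1.23, adjusted p = 0.72).

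*Jam2* (ENSMUSG00000053062, chromosome 16, 84774123 to 84825928, plus strand) and *Jam3* (ENSMUSG00000031990, chromosome 9, 27097384 to 27155421, minus strand) encode junctional adhesion molecules that bind each other across neighbouring cells. *Jam2* was at 5.26, 5.78 and 5.44 CPM in WT Prol and at 7.91, 7.02 and 6.25 in KO Prol. It was at 2.68, 8.68 and 9.99 CPM in WT D0 and at 6.52, 10.3 and 8.91 in KO D0. At D2 it was at 25.3, 22.6 and 25.6 CPM in WT and at 36.8, 40.8 and 22.4 in KO, above all libraries of Prol and D0. *Jam2* rose from Prol to D2 by 2.16 on the log2 scale for WT (standard error 0.36, adjusted p = 3.0e-04) and by 2.20 in KO (standard error 0.35, adjusted p = 1.8e-04). It was the only member among those that rose by D2 in both genotypes with a higher D2 mean in KO (33.4 ± 9.69 CPM, SD, n = 3) than in WT (24.5 ± 1.67, n = 3), and its D2 libraries overlapped between the genotypes.

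*Jam3* started from a higher level and changed less. It was at 28.0, 36.6 and 32.6 CPM in WT Prol and at 27.8, 36.2 and 32.2 in KO Prol, at 26.7, 44.0 and 42.0 in WT D0 and at 27.3, 41.5 and 34.2 in KO D0. At D2 it was at 51.7, 61.8 and 56.0 CPM in WT, above all WT Prol and D0 libraries, and at 34.0, 53.2 and 43.9 in KO, which overlapped with KO Prol. The rise from Prol to D2 was 0.81 in WT (standard error 0.23, adjusted p = 0.013). Without replicate 1 of WT Prol its adjusted p was 0.059. In KO the value was 0.43 (standard error 0.23, adjusted p = 0.17). In the fit blocked by replicate number, the KO value was also 0.43 and passed (adjusted p = 0.0068).

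The ferlins *Dysf* (ENSMUSG00000033788, chromosome 6, 84008590 to 84211060, plus strand) and *Myof* (ENSMUSG00000048612, chromosome 19, 37899036 to 38043577, minus strand) differed in level and in response. *Dysf* was at 17.4, 15.8 and 16.8 CPM in WT Prol and at 19.1, 19.1 and 19.4 in KO Prol, at 32.9, 14.5 and 16.5 in WT D0 and at 28.5, 20.3 and 19.4 in KO D0. At D2 it was at 80.0, 29.3 and 37.4 CPM in WT and at 53.5, 30.8 and 30.4 in KO, above every Prol library. Replicate 1 was the highest library of both D0 and both D2 groups. *Dysf* rose from Prol to D2 by 1.41 in WT (standard error 0.36, adjusted p = 0.0070), and in KO its value was 0.94 (standard error 0.35, adjusted p = 0.051). In the blocked fit the KO value was 0.97 and passed (adjusted p = 0.0019). The models of *Dysf* and *Jam2* share bases on the same strand with the annotated genes *Gm7498* and *Gm25908*.

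*Myof* was the most abundant member per length before D2, and no difference between states passed the test. It was at 450, 222 and 294 CPM in WT Prol and at 433, 232 and 301 in KO Prol, at 465, 143 and 265 in WT D0 and at 454, 172 and 295 in KO D0. At D2 it was at 610, 183 and 248 CPM in WT and at 625, 210 and 279 in KO. In every group replicate 1 was the highest and replicate 2 the lowest library. The log2 difference between D2 and Prol was -0.01 in WT (95% interval -1.14 to 1.12, adjusted p = 0.99) and 0.11 in KO (-1.03 to 1.26, adjusted p = 0.90), and these intervals reach beyond a change of 2-fold either way.

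**Figure D1:**
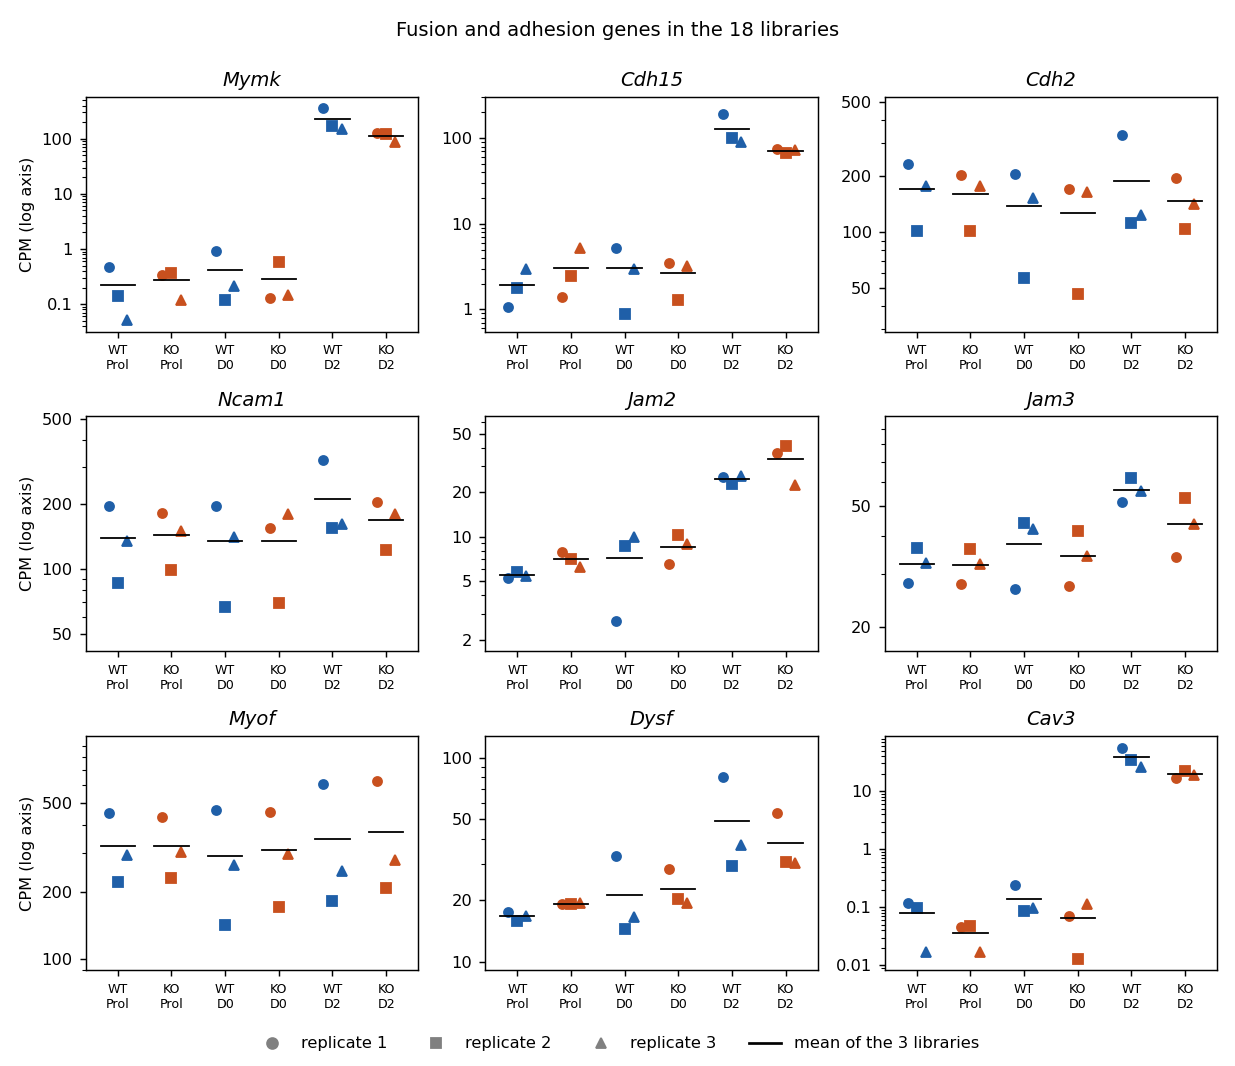
CPM of the 9 members on log axes (vertical) in the 6 groups (horizontal; WT in blue, KO in orange), with a point for each library, shaped by its replicate number, and a line at the mean of 3. *Mymk*, *Cdh15* and *Cav3* are at 16.5 CPM or more in all D2 libraries and at most 5.23 CPM in all others, while in *Cdh2*, *Ncam1* and *Myof* replicate 1 lies above replicate 2 in all 6 groups.

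Counted together, 6 of the 9 members were higher in D2 than in Prol in WT (*Mymk*, *Cdh15*, *Cav3*, *Jam2*, *Dysf* and *Jam3*) and 4 in KO (*Mymk*, *Cdh15*, *Cav3* and *Jam2*), and none was lower. Of all genes tested, 30.8% were called in WT (16.7% higher) and 32.6% in KO (17.5% higher). The median log2 difference was 1.41 over the members in WT and 0.94 in KO, against -0.01 and 0.03 over all genes. That *Dysf* and *Jam3* passed in WT and not in KO does not show that the genotypes differed in them, for which the test of the difference itself is given with the interaction. With library totals in place of the TMM factors the median of all genes shifted by 0.16 in WT and 0.13 in KO, and the 6 and 4 members remained called, with *Dysf* added in KO (adjusted p = 0.014).

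**Figure D2:**
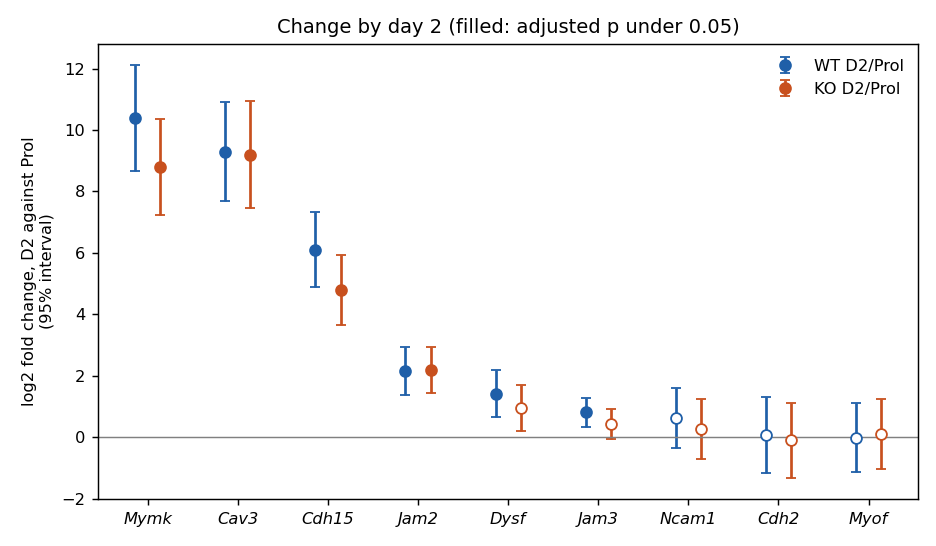
Log2 fold change from Prol to D2 (vertical axis) of the 9 members (horizontal axis) in WT (blue) and KO (orange), with 95% intervals from the limma fit and filled points where the adjusted p is under 0.05. The values fall from 10.40 for *Mymk* in WT to about 0 for *Cdh2* and *Myof*.

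Most of these calls were also made between D0 and D2. Between Prol and D0, limma called 0 members and 0 of all genes (0.0%) in either genotype, with 0 of 9 members under an unadjusted p of 0.05 against 351 of all genes in WT and 175 in KO. In the unweighted limma fit and in the fit with a fixed replicate block, 1 gene was called in WT, and in KO 1 gene was called without replicate 1 of KO D0, no member in any of these. Between D0 and D2, 5 members were higher in WT (*Mymk* by 9.48, *Cav3* by 8.19, *Cdh15* by 5.65, *Jam2* by 2.02 and *Dysf* by 1.15 on the log2 scale), where 25.9% of all genes were called and 14.8% were higher. In KO, 4 were higher (*Mymk* by 8.92, *Cav3* by 8.71, *Cdh15* by 4.90 and *Jam2* by 1.94), where 29.0% of all genes were called and 16.0% were higher. The WT call of *Dysf* (adjusted p = 0.025) did not hold without replicate 2 of WT D0 (0.109), replicate 3 of WT D0 (0.100) or replicate 1 of WT D2 (0.105), nor in the fit of these groups alone (0.137). *Jam3* was at 0.62 in WT (adjusted p = 0.056). With the replicate block, *Dysf* (adjusted p = 0.013) and *Jam3* (0.026) were also higher in KO. Single D0 libraries moved several of these folds by over 1.5 times while all stayed called: in WT, *Mymk* was at 10.35 without replicate 1 and 8.84 without replicate 2, *Cdh15* at 6.24 and 4.92, and *Jam2* at 1.40 without replicate 1. In KO, *Mymk* was at 9.65 and *Cav3* at 7.76 without replicate 2, and *Cav3* at 9.31 without replicate 3. These comparisons share the D2 libraries with those against Prol.

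The question of the design, whether loss of LAP2α changes these genes, was addressed in each state. In Prol and in D0, limma called 0 members and 0 of all genes (0.0%) between KO and WT. No member had an unadjusted p under 0.05 in either state, and 175 and 261 of all genes did. Of the other fits, the unweighted limma fit called 1 gene in Prol and the fixed replicate block 2 genes in D0, none of them a member. In Prol, the mean of *Cdh2* was 169.9 ± 65.5 CPM in WT against 160.3 ± 53.0 in KO, that of *Ncam1* 139 ± 55.9 against 144 ± 41.7, and that of *Myof* 322 ± 116 against 322 ± 102 (SD, n = 3 each).

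At D2, *Mymk*, *Cdh15* and *Cav3* were lower in KO than in WT in every library, without passing the adjusted test. The mean of *Mymk* was 226 ± 115 CPM in WT against 111 ± 21.9 in KO, that of *Cdh15* 127 ± 54.4 against 71.8 ± 4.11, and that of *Cav3* 39.1 ± 15.4 against 19.4 ± 3.05 (SD, n = 3 each). Such a separation of all KO below all WT libraries was found in 3.81% of all genes. The log2 differences were -0.93 for *Mymk* (standard error 0.41, 95% interval -1.79 to -0.06, adjusted p = 1), -0.74 for *Cdh15* (0.42, -1.64 to 0.16, adjusted p = 1) and -0.95 for *Cav3* (0.30, -1.59 to -0.30, adjusted p = 1). In the fit with a fixed replicate block they were -0.924 (standard error 0.275), -0.741 (0.352) and -0.976 (0.259), and the smallest adjusted p of any gene was 0.0549. In the main fit, no member and none of all genes (0.0%) were called by limma with voom weights, and 2 members and 551 of all genes had an unadjusted p under 0.05.

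A looser rule takes genes with an unadjusted p under 0.05, a fold over 1.5 and some library that reaches 10 CPM. It counted *Mymk* and *Cav3*. Of all genes 0.973% met this rule (172 genes, 46 higher and 126 lower in KO), 0.713% as lower in KO. The study's methods write the fold threshold on the log2 scale. The gene count that the paper reports for this comparison is nearer to that of the looser rule than to that of the log2 threshold. With a log2 fold change over 1.5, 0 members and 14 of all genes were counted, 10 of them higher and 4 lower in KO. The number of members that met the looser rule ranged from 0 to 3 over the other fits. None met it in the limma fit without voom weights, where the smallest unadjusted p of a member was that of *Jam3* at 0.101, and *Cdh15* was added with a random replicate block, with library totals and in the fit of only these groups. Without replicate 1 of WT D2 the values shrank to -0.54 for *Mymk*, -0.41 for *Cdh15* and -0.65 for *Cav3*, and only *Cav3* met the rule. *Mymk* also failed it without replicate 3 of KO D2. Without both replicate 1 libraries of D2, a setting chosen after the data were seen, the values were -0.64, -0.44 and -0.55 and no member met it. Of all genes, the fits other than the main one called 0 to 27 with an adjusted p under 0.05, the 27 with a pseudocount of 1 CPM, and none of these was a member.

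The other 6 members overlapped between the genotypes at D2. The log2 differences were 0.40 for *Jam2* (95% interval -0.24 to 1.04), -0.39 for *Jam3* (-0.88 to 0.09), -0.27 for *Dysf* (-0.999 to 0.461), -0.27 for *Ncam1* (-1.26 to 0.72), -0.22 for *Cdh2* (-1.46 to 1.02) and 0.15 for *Myof* (-1.0 to 1.30). Same-numbered WT D2 and KO D2 libraries deviated together from their group means (r = 0.65, 0.37 and 0.28), though no source used here states a pairing. *Jam3* was lower in KO in all 3 same-numbered pairs, and the share of all genes with this order is not given here. In the blocked fit its value was -0.39 with a standard error of 0.12 in place of 0.23 (adjusted p = 0.36), and *Mymk*, *Cav3* and *Jam3* were the 3 members with an unadjusted p under 0.05, against 1163 of all genes. The unblocked intervals of *Jam3*, *Jam2* and *Dysf* are the narrowest of these, and each still contains a change of 1.5-fold. Over the 9 members, 7 values were negative with a median of -0.27, and over all genes 9092 of 17672 were negative with a median of -0.01.

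**Figure D3:**
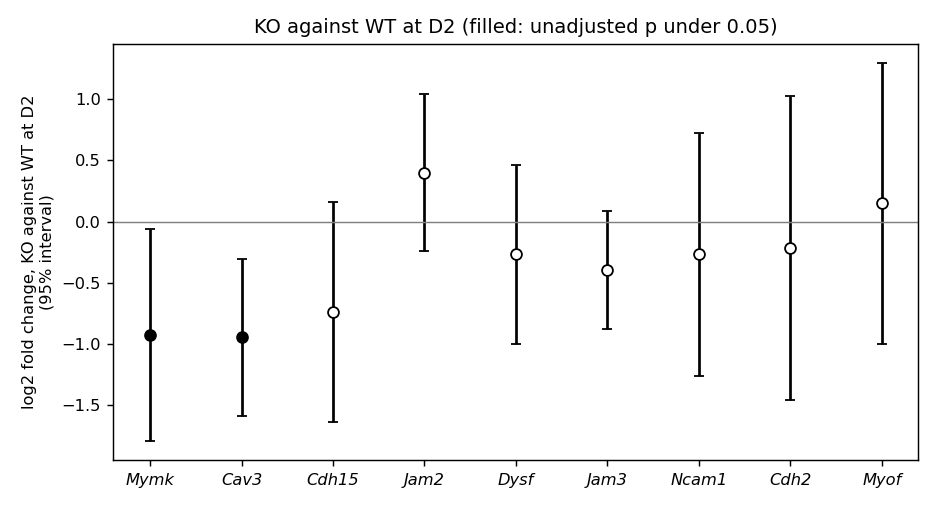
Log2 fold change of KO against WT at D2 (vertical axis) of the 9 members (horizontal axis) with 95% intervals from the limma fit. Filled points, *Mymk* and *Cav3*, have an unadjusted p under 0.05, and no adjusted p was under 0.05.

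Markers of differentiation moved with these 3 genes. The summed level of the 7 differentiation markers was 2935 to 6520 CPM in WT D2 and 1743 to 2814 in KO D2, without overlap, and 2.89 to 46.8 in all Prol and D0 libraries. Per 1000 CPM of these markers, a ratio chosen after the levels were seen, *Mymk* was at 54.8, 53.2 and 50.3 CPM in WT and at 44.7, 54.6 and 49.4 in KO. *Cdh15* was at 29.0, 30.8 and 31.2 in WT and at 26.6, 30.05 and 42.1 in KO, and *Cav3* at 8.63, 10.7 and 8.99 and at 5.88, 10.1 and 10.9. The genotypes overlapped in these 3 ratios and in those of *Cdh2*, *Ncam1* and *Jam3*. In the other members, each KO ratio was above each WT ratio, although their CPM overlapped between the genotypes. The divisor was lower in every KO library, which raises the KO ratio of any gene with a like CPM in both genotypes. The share of all genes with this order of ratios is not given here. *Jam2* was at 3.89 to 8.72 in WT and 12.9 to 18.3 in KO, and *Dysf* at 9.09 to 12.7 and 13.8 to 19.0. *Myof* was at 56.8 to 93.5 in WT and 93.8 to 222 in KO. The cause of these differences was not tested. In bulk RNA, fewer differentiated cells and less RNA of a gene per cell cannot be told apart.

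**Figure D4:**
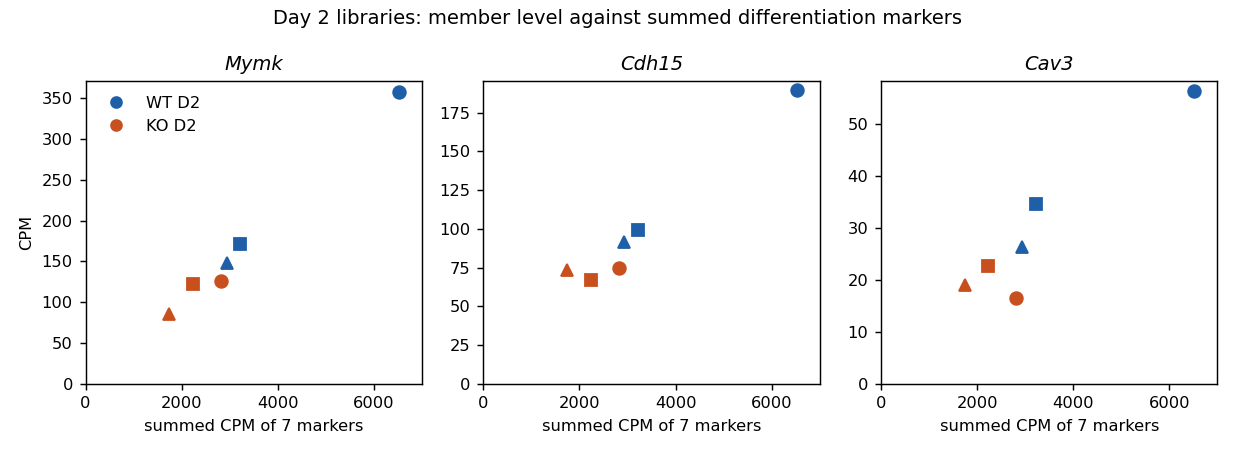
CPM of *Mymk*, *Cdh15* and *Cav3* (vertical axes) against the summed CPM of 7 differentiation markers (horizontal axes) in the 6 D2 libraries (WT in blue, KO in orange; circle, square and triangle are replicates 1, 2 and 3). WT replicate 1 has the highest value on both axes at 6520 CPM of markers, and the KO libraries have the 3 lowest sums.

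Of markers of other cells, 6 of 7 for fibroblasts or mesenchymal progenitors were listed (*Tcf21* was not), with a summed level of 230 to 257 CPM in WT D2 and 209.5 to 411 in KO D2, and 34.2 to 132 before D2. The part of these in the members' levels was not tested. The listed endothelial markers (4 of 5) summed to 1.19 to 2.74 CPM over all libraries, and *Tek* and *Tie1* were under 1 CPM in every library. The listed markers of leukocytes (2 of 5, without *Ptprc*) summed to 3.62 to 8.004 CPM, and those of Schwann cells and adipocytes (2 of 4 each) to 0.30 to 3.71 CPM.

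Whether the effect of the knockout differed between D2 and Prol was tested by the difference of the 2 log2 differences. It was -1.60 for *Mymk* (standard error 1.10; -2.50 without replicate 1 and -0.81 without replicate 3 of WT Prol), -1.32 for *Cdh15* (0.79) and -0.09 for *Cav3* (1.12), and the values for *Jam2*, *Jam3* and *Dysf* were 0.04 (0.50), -0.38 (0.32) and -0.47 (0.50). This is also the difference between KO and WT in the change from Prol to D2. All adjusted p-values were 1, limma called 0 members and 0 of all genes (0.0%), and 0 members and 175 of all genes had an unadjusted p under 0.05. No other fit called a member. In the limma fit with a pseudocount of 1 CPM, 2 members and 315 of all genes had an unadjusted p under 0.05. It was so for 1 member and 396 of all genes with the fixed replicate block, and for 1 member and 173 of all genes without replicate 1 of KO Prol.

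The list of other genes of fusion and adhesion, also chosen by known role, held 89 genes, of which 76 were tested. In WT, 23 of them changed from Prol to D2, 21 up and 2 down (median 0.23), and in KO 27, 24 up and 3 down (median 0.28), which is 30.3% and 35.5% of those tested. Of all genes 30.8% and 32.6% were called, so these shares were near those of all genes. The genes that rose were 27.6% and 31.6% of those tested, against the 16.7% and 17.5% of all genes given above. With the replicate block the KO count was 41, 33 of them up, where 8718 of all genes were called instead of 5764. *Mymx*, the partner of *Mymk*, rose by 8.72 in WT and by 7.76 in KO (adjusted p = 3.0e-06 and 6.9e-06). It went from 0.10 ± 0.05 to 40.6 ± 8.90 CPM in WT and from 0.15 ± 0.16 to 24.9 ± 12.3 in KO (SD, n = 3), and its D2 libraries overlapped between the genotypes.

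Among 11 cadherins, catenins and co-receptors, 5 rose in WT and 4 in KO (45.5% and 36.4%), where 16.7% and 17.5% of all genes rose. *Cdh11*, a cadherin typical of mesenchymal cells, rose most, by 2.71 in WT and 2.56 in KO, to 247.5 ± 98.5 and 280.1 ± 74.9 CPM (SD, n = 3). Among 15 immunoglobulin-type adhesion molecules and enzymes of polysialylation, 3 rose (20.0%) and 2 fell in either genotype. The 33.3% called there were near the share of all genes. *St8sia2*, an enzyme that adds polysialic acid to NCAM, rose by 3.05 in WT and by 2.55 in KO, and the adhesion molecule *Cadm1* fell by 2.66 in WT and by 2.59 in KO.

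The shares below stand beside 16.7% of all genes that rose in WT and 17.5% in KO, with 30.8% and 32.6% called in either direction. Among 13 genes of ferlins and membrane repair, 3 rose in WT (23.1%), and in KO 4 rose (30.8%) and 1 fell. The muscle protease *Capn3* rose most, from 0.04 to 35.2 ± 6.30 CPM in WT and to 19.4 ± 6.56 in KO (SD, n = 3). Of 8 genes of caveolae, 1 rose in either genotype (12.5%), *Cavin4*, the cavin of muscle, by 2.70 in WT and by 1.99 in KO. Of 28 genes of actin remodelling and signalling in fusion, 8 rose in WT and 11 in KO (28.6% and 39.3%), led by the membrane protein *Tmem182* with 6.65 and 5.93. In KO against WT at D2, none of the 76 genes was called and 6 (7.89%) had an unadjusted p under 0.05, against 551 of all genes (3.12%). With the threshold of 1.5 on the log2 scale, 0 of the 76 were counted. The looser rule, which counted 126 of all genes as lower, counted 4, all lower in KO and named here after their values were seen: *Tmem182* with a log2 difference of -0.96 (standard error 0.24), *Capn3* with -0.88 (0.30), *Trim72* with -0.82 (0.31) and *Cavin4* with -0.64 (0.25).

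Several members differed between replicate numbers in the same direction in every group. *Cdh2*, *Ncam1* and *Myof* were higher in replicate 1 than in replicate 2 in all 6 groups, by 1.87 to 3.67 times for *Cdh2*, 1.68 to 2.95 times for *Ncam1* and 1.87 to 3.33 times for *Myof*. Of all genes, 24.6% were higher in replicate 1 than in replicate 2 in all 6 groups. *Cdh2* and *Myof* had the order replicate 1, replicate 3, replicate 2 in all 6 groups, as had 5.0% of all genes. *Jam3* went the other way, with replicate 1 below replicate 2 in all 6 groups at 0.608 to 0.837 times its level, as did 23.0% of all genes. *Mymk*, *Cdh15* and *Cav3* had replicate 1 above replicate 2 in 4 of 6 groups, *Jam2* in 2 and *Dysf* in 5.

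Exon length, here all bases in any annotated exon of a gene, moved with this order. Genes with a mean of at least 10 CPM over the 18 libraries were split by exon length into 10 bands of like size. The median log2 ratio of replicate 1 to replicate 2 went from -0.48 in the shortest band (117 to 1837 bases of exon) to 0.64 in the longest (10483 bases or more). In the shortest band 10.4% of genes were higher in replicate 1 in all 6 groups, and in the longest 65.8%. The exon lengths of *Myof*, *Ncam1*, *Dysf* and *Cdh2* are 12603, 8664, 8328 and 8066 bases, and their median log2 ratios were 1.49, 1.10, 0.64 and 1.39. Those of *Jam3*, *Mymk* and *Cav3* are 3200, 1511 and 1157 bases, with ratios of -0.49, 0.55 and 0.49. *Jam3* was below the 0.09 of its length band. *Mymk* and *Cav3* were above the -0.48 of theirs, with few counts before D2. *Jam2* (6045 bases) was at -0.14, below the 0.27 of its length band, and *Cdh15* (3251 bases) at 0.54, above the 0.09 of its band. The difference between the long and the short band was highest in replicate 1 and lowest in replicate 2 of every group. Its part in the members' values was not tested.

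**Figure D5:**
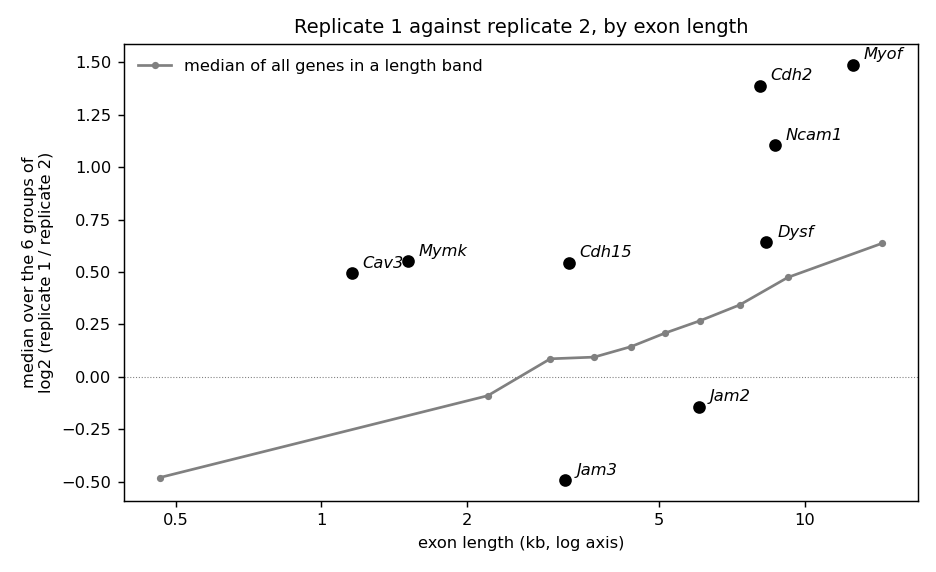
Median over the 6 groups of the log2 ratio of replicate 1 to replicate 2 (vertical axis) against exon length in kb (horizontal axis, log scale), for the 9 members (black points) and as the median of all genes in each of 10 length bands (grey). The bands go from -0.48 to 0.64, *Cdh2*, *Ncam1* and *Myof* lie above them at 1.10 to 1.49, and *Jam3* lies below at -0.49. *Mymk*, *Cav3* and *Cdh15* lie above the band of their own length at 0.49 to 0.55, and *Jam2* below its band at -0.14.

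Levels per kb were divided by the exon length of all annotated transcripts together (1 transcript for *Cdh15* and *Cav3*, 12 for *Myof*, 16 for *Dysf*). This length can exceed that of the transcripts expressed, which lowers the level per kb. Per kb of exon, the order of the members changed with differentiation. In WT Prol it was *Myof* (25.5 ± 9.24 CPM per kb), *Cdh2* (21.1 ± 8.13), *Ncam1* (16.1 ± 6.45), *Jam3* (10.1 ± 1.34), *Dysf* (2.00 ± 0.10), *Jam2* (0.91 ± 0.04), *Cdh15* (0.59 ± 0.29), *Mymk* (0.15 ± 0.15) and *Cav3* (0.07 ± 0.05). From *Myof* to *Jam3* each overlapped with the next, as did *Jam2* with *Cdh15* and *Mymk* with *Cav3*. Of these overlapping neighbours, *Myof* was above *Cdh2*, *Cdh2* above *Ncam1* and *Mymk* above *Cav3* within each of the 3 libraries. In WT D2 *Mymk* was first with 149 ± 76.0 CPM per kb, with all its libraries above those of any other member, followed by *Cdh15* (39.0 ± 16.7), *Cav3* (33.8 ± 13.3), *Myof* (27.5 ± 18.2), *Ncam1* (24.6 ± 10.9), *Cdh2* (23.5 ± 15.5), *Jam3* (17.7 ± 1.58), *Dysf* (5.87 ± 3.27) and *Jam2* (4.05 ± 0.28). From *Cdh15* to *Jam3* each overlapped with the next, as did *Dysf* with *Jam2*. Of these, only *Cdh15* over *Cav3* and *Cav3* over *Myof* held within each of the 3 libraries. In KO D2 *Mymk* was also first and apart from the rest (73.6 ± 14.5), and *Myof* (29.4 ± 17.6), *Cdh15* (22.1 ± 1.26), *Ncam1* (19.6 ± 4.93), *Cdh2* (18.2 ± 5.66), *Cav3* (16.7 ± 2.63) and *Jam3* (13.7 ± 3.00) each overlapped with the next. *Jam2* (5.52 ± 1.603) and *Dysf* (4.59 ± 1.59) came last and overlapped with each other (SD, n = 3 throughout). Of the overlapping neighbours in KO D2, only *Cav3* over *Jam3* held within each of the 3 libraries.

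The likeness of the members over the 18 libraries is given as Pearson's r of log2 CPM, a description, since the libraries share states, replicate numbers and depths. *Mymk* and *Cav3* had r = 0.97, *Mymk* and *Cdh15* r = 0.94, and *Cdh15* and *Cav3* r = 0.94. *Cdh2* and *Ncam1* had r = 0.92 and *Cdh2* and *Myof* r = 0.89, whereas *Jam3* and *Myof* had r = -0.51. Among 10241 other genes, the most alike to *Mymk* were *Actc1* (r = 0.998), which is also among the differentiation markers above, *Casq2* (0.997) and *Mybph* (0.996), all genes of the contractile or calcium-storing apparatus of muscle. Those for *Cdh15* were *Cdkn1a* (0.98), *Srl* (0.98) and *Rtn2* (0.98), and those for *Cav3* were *Unc45b* (0.98), *Serinc2* (0.98) and *Acsl3* (0.98). For *Myof* they were *Tln1*, *Hdlbp* and *Igf1r* (0.98 each), for *Cdh2* *Arhgap10* (0.97), *Pard3* (0.96) and *Zfp768* (0.96), and for *Ncam1* *Mtr* (0.95), *Lrig3* (0.95) and *Stim2* (0.94). For *Jam2* they were *Rnf25* (0.97), *Ctsk* (0.95) and *Bfar* (0.95), for *Jam3* *Pkig* (0.96), *Vhl* (0.94) and *Nsmce2* (0.93), and for *Dysf* *Pnrc1*, *Fchsd2* and *Abi3bp* (0.96 each).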

How the data were processed

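Polyadenylated RNA was sequenced with a strand-specific, single-end protocol. The authors used cutadapt for trimming and NextGenMap for mapping to GRCm38 transcripts. Expected counts came from RSEM and were brought to the gene level by tximport. The authors then filtered low counts, applied TMM factors from edgeR and ran the voom step of limma. The authors deposited CPM on the scaled library totals, with 0.5 counts added to each expected count, written with decimal commas. Expected counts and totals were recovered from them. Of recovered counts under 20, 37.5% to 49.9% were whole within 0.01.

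Genes were kept where some group had over 5 expected counts in each of its 3 libraries, and these 17672 were fitted with limma 3.58.1 in R 4.3.3 (voom weights, 1 factor of 6 groups, 18 libraries), and p-values were adjusted by the Benjamini-Hochberg method. Genes with an adjusted p under 0.05 were called. The looser rule follows the study's criteria but with a fold of 1.5, where its methods write a log2 fold change of 1.5, which was an alternative. The lane used as a block by the study is not in the labels and was left out. Of the 3 same-numbered pairs of libraries, all deviated together (r over 0.1) in every comparison made between 2 groups except WT D2/Prol (0.04 for replicate 3) and WT D2/D0 (0.01), so the replicate block is given beside the results it changes. The members, lists and tests were chosen with earlier results of these data known. Named are all members, *Mymx*, the largest rise and fall in WT D2/Prol among called genes of each group of the list, and the 3 genes most alike to each member. Exon lengths and positions are from GENCODE M21, promoter sequences from RefSeq, and plots come from matplotlib 3.10.9 under Python 3.11.15.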

Additional observations from a re-analysis of the deposited data

How the results depend on the processing

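Every count of members called changed by at most 1.5 times under the other adjusted fits, which were an unweighted limma trend, the replicate number as a fixed or random block, the compared groups alone, library totals, median-of-ratios scaling, no filter on low counts, a pseudocount of 1 CPM, and each library left out in turn. The looser 1.5-fold rule moved the members counted in KO/WT D2 from 0 to 2 and the listed pathway genes from 0 to 4. With a log2 fold change over 1.5 both were 0. The pathway count changed from 23 in WT D2/Prol to 42 with the fixed replicate block, 39 with the random block and 11 with a log2 fold change over 1.5, and from 27 in KO D2/Prol to 41 with the fixed block and 12 with a log2 fold change over 1.5. With the fixed block, all genes called were 8431 instead of 5439 in WT D2/Prol, 8718 instead of 5764 in KO D2/Prol, 7615 instead of 4571 in WT D2/D0 and 8220 instead of 5123 in KO D2/D0, and *Ncam1* was called in WT D2/Prol (adjusted p = 0.022) and *Ncam1* and *Jam3* in WT D2/D0 (0.0099 and 0.00058), where the numbers do not pair the libraries by the check used. *Jam3* was called there with library totals and median-of-ratios too (0.045 and 0.048). The random block gave 7352 in WT D2/D0 and 8018 in KO D2/D0, the compared groups alone 2314 and 3218, leaving out replicate 3 of WT D0 gave 2971 in WT D2/D0, and a log2 fold change over 1.5 gave 1181 and 1261, and 1356 and 1445 against Prol in WT and KO. The block changed no other call of a member than those given. The 1.5-fold rule counted 37, 23, 21, 39 and 172 genes in WT D0/Prol, KO D0/Prol, KO/WT Prol, D0 and D2, where the adjusted test called 0, and a log2 fold change over 1.5 counted 14, 8, 4, 24 and 14.

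Reversals of sign occurred in values that did not pass the test. With library totals the D2/Prol value of *Myof* in WT was 0.14 (0.01 with median-of-ratios) and that of *Cdh2* in KO 0.025. Without both replicate 1 libraries of D2 (added after the data were seen), *Cdh2* was at -0.44 in WT D2/Prol and 0.052 in KO/WT D2, *Myof* at -0.36 in KO D2/Prol, and the differences between D2 and Prol in the KO effect were -0.032 for *Jam2* and 0.302 for *Cav3*. With single libraries left out, WT D2/Prol ranged from -0.44 to 0.36 for *Cdh2* and from -0.52 to 0.35 for *Myof*, KO D2/Prol from -0.40 to 0.12 and from -0.36 to 0.44, and KO/WT D2 from -0.51 to 0.29 for *Cdh2*, -0.45 to 0.074 for *Ncam1*, -0.33 to 0.66 for *Myof* and -0.57 to 0.16 for *Dysf*. The difference of the KO effect ranged from -2.50 to -0.81 for *Mymk*, from -1.78 to -0.83 for *Cdh15*, from -0.13 to 0.30 for *Jam2* and from -0.64 to 0.80 for *Cav3*. The cause of these changes was not tested. At 0 to 28 counts a library, the Prol and D0 levels of *Mymk* and *Cav3* are set by few reads, and their folds are imprecise.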
